A study of Mus musculus with 24 samples.

Results

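The 8 genes described here encode the core of AP-1, the transcription factor that cells assemble from leucine zipper proteins of the Fos, Jun and ATF families. They are the Fos family genes Fos, Fosb, Fosl1 and Fosl2, the Jun family genes Jun, Junb and Jund, and Atf3. They were taken by gene symbol, are 8 of the 45777 genes in the deposited table, and were listed there by 11 transcripts. All 8 passed the low-count filter and were tested among 19690 genes. In the deposited coordinates (mm10/GRCm38) Fos (Entrez 14281) lies at chr12:85473890-85477274, Fosb (14282) at chr7:19302696-19310118, Fosl1 (14283) at chr19:5447698-5455938 and Fosl2 (14284) at chr5:32136472-32157840. Jun (16476) lies at chr4:95049036-95052222, Junb (16477) at chr8:84976909-84978748, Jund (16478) at chr8:70697739-70700616 and Atf3 (11910) at chr1:191170296-191183333.

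The protein made from Fos itself does not form stable pairs with its own kind and binds DNA with a partner, mostly a Jun protein. Jun proteins also pair among themselves, and ATF3 pairs with Jun proteins or with itself. Several of these genes are immediate early genes, which are transcribed within minutes of a stimulus by factors already present in the cell, and whose mRNAs decay fast. In lung they are known as early responders to stretch, oxidants and loss of blood flow.

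Lung RNA came from wild-type male C57BL/6J mice, 8 to 12 weeks old (young) or 22 to 24 months old (old). The vessels and bronchus at the left hilum were clamped for 60 min, and lungs were taken after 1 h or 1 day of reperfusion. Sham lungs formed the control of each age, but the time at which they were taken is not stated. Each of the 6 groups had 4 libraries, named here by group and number, of whole lung tissue and not of single cell types. Whether the 4 libraries of a group come from 4 mice is not stated, so a p-value here reflects the spread among libraries, which may be technical.

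Libraries held 27850677 to 44504824 estimated reads. Markers of alveolar type 2 cells, the surfactant-making cells of the lung, summed to between 7391 and 27511 scaled counts (CPM, counts scaled by library total), and none of these 5 genes was at a count of 0 in any library. Old sham 2 held the highest CPM of its group in all 8 genes, and old 1 day 2 in all but Fosl1 and Fosl2. Where a change printed for these genes moved by over 1.5 times in fold without either library, it is given both ways. Young libraries taken after reperfusion differed from the others in a trend of expression with GC content. Spearman's rho with GC, taken across genes within each library, lay between 0.2 and 0.43 in those 8 libraries and between -0.34 and -0.02 in the rest, and the tests were repeated with the trend removed.

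The promoters of genes of this kind are known for cyclic AMP response elements, whose core is TGACG, and, in Jun, for an AP-1 element of its own with the letters TGACATCA. RefSeq promoter windows (GRCm38.p6, 250 bases before to 50 bases after the gene start) matched 7 of the 8 genes by symbol. The core TGACG, read on both strands, stood in 4 of these 7 windows (Fos, Fosb, Junb and Atf3), against 20.8% of all 32851 promoter windows of the same length. TGACATCA, also read on both strands, stood in 1 of the 7, that of Jun, against 3.62% of all windows. TGACG is not contained in TGACATCA, and neither was found in the windows of Fosl2 and Jund. The 130 bases before the gene start are printed for the 5 genes with a match, since these are the genes whose mRNAs are followed below. The sequences run 5′ to 3′ on the gene's strand and end at the base just before the start, and capitals mark the matches (in Atf3 the core is on the opposite strand and reads CGTCA).
Fos, chr12:85473760-85473889, plus strand: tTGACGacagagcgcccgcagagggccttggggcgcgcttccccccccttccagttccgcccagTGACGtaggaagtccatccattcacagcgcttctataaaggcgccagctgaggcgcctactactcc
Fosb, chr7:19310046-19310175, minus strand: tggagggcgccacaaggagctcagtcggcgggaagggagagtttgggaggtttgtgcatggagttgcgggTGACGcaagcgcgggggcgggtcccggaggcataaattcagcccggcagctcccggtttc
Jun, chr4:95052223-95052352, minus strand: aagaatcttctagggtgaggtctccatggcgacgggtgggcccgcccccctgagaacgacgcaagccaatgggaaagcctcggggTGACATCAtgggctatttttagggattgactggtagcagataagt
Junb, chr8:84978749-84978878, minus strand: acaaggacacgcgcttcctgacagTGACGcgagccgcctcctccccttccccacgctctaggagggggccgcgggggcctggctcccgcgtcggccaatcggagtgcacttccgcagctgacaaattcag
Atf3, chr1:191183334-191183463, minus strand: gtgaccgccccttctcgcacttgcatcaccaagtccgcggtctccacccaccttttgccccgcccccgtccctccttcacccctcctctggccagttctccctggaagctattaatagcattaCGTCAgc
Counted back from the base before the start, the Fos matches lie at -129 to -125 and -66 to -62, the Fosb match at -60 to -56, the Jun match at -45 to -38, the Junb match at -106 to -102 and the Atf3 match at -7 to -3. A match is a string of letters and not a bound site.

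How AP-1 mRNA in young lungs stood after 1 h of reperfusion was asked first. All 8 genes rose, against 21.2% of all genes tested that were called higher. For all 8, the 4 libraries at 1 h lay above the 4 sham libraries, as they did for 21.0% of all genes. The median log2 change was 3.15 over the 8 genes and 0.02 over all genes. Each call rested on edgeR's quasi-likelihood test with Benjamini-Hochberg adjustment over all genes, at an adjusted p under 0.05, and all 8 calls were also made with the GC trend removed. Changes are log2 changes with their standard error (SE), and CPM means carry the standard deviation (SD) over 4 libraries.

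Fos, the founding member, held 52.1, 55.4, 87.9 and 64.8 CPM in the 4 young sham libraries and 1209, 1076, 895 and 1505 CPM in the 4 young 1 h libraries. The lowest library at 1 h thus lay far above the highest sham library. The log2 change was 4.17 ± 0.79 (adjusted p = 0.000269, edgeR), an 18.01-fold rise. Fosb, the closest relative of Fos, held 58.2, 80.7, 59.6 and 27.1 CPM in sham and 1103, 1014, 1006 and 1434 CPM at 1 h. The 1 h libraries lay close together while the sham libraries spread, and the log2 change was 4.34 ± 1.14 (adjusted p = 0.00456). Fosl1 encodes FRA1, a Fos protein without the strong activation domain, and was nearly silent in sham, with 1.36, 3.02, 0.756 and 0.65 CPM. At 1 h it held 58.1, 36.8, 19.3 and 26.2 CPM, and rose by 4.57 ± 0.65 (adjusted p = 1.06e-05), or by 5.22 without young sham 2. Fosl2, which encodes FRA2, had the smallest of the 8 rises, from 144 ± 35.5 CPM to 355 ± 28.6 CPM (1.30 ± 0.28, adjusted p = 0.000751).

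Atf3, the stress-induced partner of Jun proteins that often represses its targets, held 26.4, 36.6, 56.3 and 24.2 CPM in young sham and 1041, 1057, 881 and 1427 CPM at 1 h. This was the largest rise of the 8, 30.7-fold (log2 4.94 ± 0.65, adjusted p = 4.82e-06, edgeR). The Jun family moved less and started higher. Jun, the main partner of Fos, held 321, 359, 429 and 443 CPM in sham and 1311, 1098, 1145 and 1607 CPM at 1 h (1.73 ± 0.28, adjusted p = 3.39e-05). Junb, a weaker activator than Jun at many targets, rose from 178 ± 43.4 to 785 ± 154 CPM (2.14 ± 0.43, adjusted p = 0.000466). Jund, the Jun gene usually described as constitutive, rose from 325 ± 45.2 to 1075 ± 129 CPM. Its log2 change, 1.72 ± 0.18 (adjusted p = 2.09e-07), had the smallest error of the 8. Jund has the highest GC content of the 8 genes (67.1%), and its change was 1.31 with the GC trend removed.

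**Figure D1:**
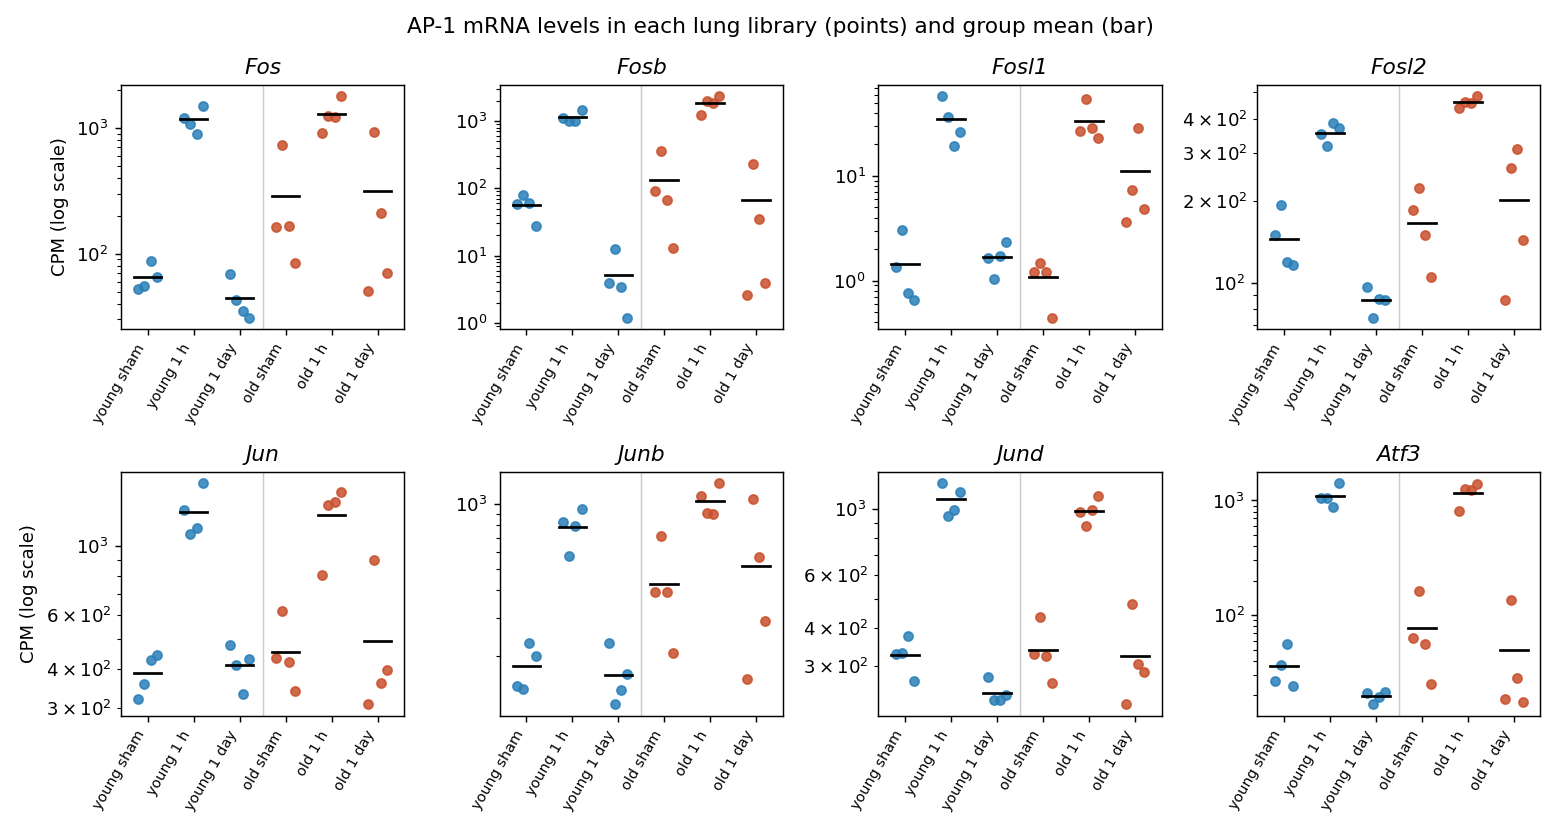
CPM on a log axis in each of the 24 libraries (points) with the group mean (bar), for the 8 AP-1 genes, in young (blue) and old (orange) lungs. In every panel all points at 1 h lie above all sham points of the same age, and the old 1 day points spread over the widest range.

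In old lungs the question was the same, against the sham lungs of old mice. All 8 genes rose there too, against 12.6% of all genes called higher, and in all 8 the 1 h libraries lay above the sham libraries (16.4% of all genes). The median log2 change of the 8 was 1.86, against 0.00 over all genes. Fos held 163, 732, 166 and 83.6 CPM in old sham and 920, 1249, 1212 and 1794 CPM at 1 h. Old sham 2 therefore came close to the lowest library at 1 h, and the log2 change was 2.18 ± 0.72 (adjusted p = 0.0326, edgeR). Without old sham 2 the Fos change was 3.23 (adjusted p = 0.00403). Fosb held 89.8, 362, 66.2 and 13.0 CPM in sham and 1245, 1973, 1856 and 2349 CPM at 1 h (3.81 ± 1.11, adjusted p = 0.016). Without old sham 2 its change was 5.04 (adjusted p = 0.00719).

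Fosl1 rose from 1.20, 1.49, 1.21 and 0.441 CPM to 27.0, 54.8, 29.0 and 23.0 CPM, which at 4.97 ± 0.67 was the largest change of the 8 in old lungs (adjusted p = 2.06e-05, edgeR). Atf3 held 63.5, 163, 55.7 and 24.9 CPM in old sham and 801, 1271, 1226 and 1383 CPM at 1 h (3.93 ± 0.61, adjusted p = 0.000111), a change of 4.61 without old sham 2. Among the others, Fosl2 rose by 1.48 ± 0.28, Jun by 1.48 ± 0.27 and Jund by 1.55 ± 0.18. Junb rose by 1.29 ± 0.42 (adjusted p = 0.0295). The calls of Fos and Junb lay nearest to the threshold. With no low-count filter their adjusted p-values were 0.0619 and 0.0587, and leaving out single libraries also ended calls. For Fos these were old sham 1, 3 or 4 and the 1 h libraries 2 or 4 (adjusted p from 0.0514 to 0.094). For Junb they were old sham 1, 3 or 4 and the 1 h libraries 1 or 4 (adjusted p from 0.0587 to 0.0831), and for Fosb old sham 1 or 3 (adjusted p = 0.0506 and 0.051).

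Markers of other cells were counted in the same comparisons. Of all genes tested, 21.2% were called higher and 20.1% lower in young 1 h, and 12.6% each way in old 1 h. A count of 1 in a list of 4 or 5 markers is near these shares. Of 5 neutrophil markers, 2 were called higher in young 1 h and 5 in old 1 h, and their summed level ranged from 406 to 739 CPM in young sham, 953 to 2055 in young 1 h, 808 to 1082 in old sham and 1577 to 6511 in old 1 h. The order of the libraries within the group was not alike in the 1 h groups of both ages. Old 1 h 1 had the highest neutrophil sum of all 24 libraries, 6511 CPM, and the lowest Fos, Fosb, Fosl2, Jun and Atf3 of its group. Young 1 h 4 had the highest sum of its group, 2055 CPM, and the highest Fos, Fosb, Jun, Junb and Atf3 there. Its Fosl1, Fosl2 and Jund were not the highest of that group. Of 5 monocyte and macrophage markers, 2 were called higher at each age. In old 1 h the alveolar type 2 sum lay at 7620 to 12388 CPM against 12590 to 18050 CPM in old sham, with 1 of 5 genes called lower, and the alveolar type 1 sum at 1367 to 2058 against 2266 to 2973 CPM, with 4 of 4 called lower. In young lungs these sums overlapped between sham and 1 h. Endothelial markers had 2 of 4 called higher in young 1 h and 1 of 4 lower in old 1 h. All 4 mesothelial markers fell in young 1 h and 3 of 4 in old 1 h. None of the 3 cardiac muscle markers was called at 1 h in either age, although their sum reached 2984 CPM in young 1 h 4 against 190 to 901 CPM in young sham. None of these marker genes was at a count of 0 in any library. Their part in the AP-1 rise was not tested, and in whole lung more cells that express a gene cannot be told apart from more RNA per cell.

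**Figure D2:**
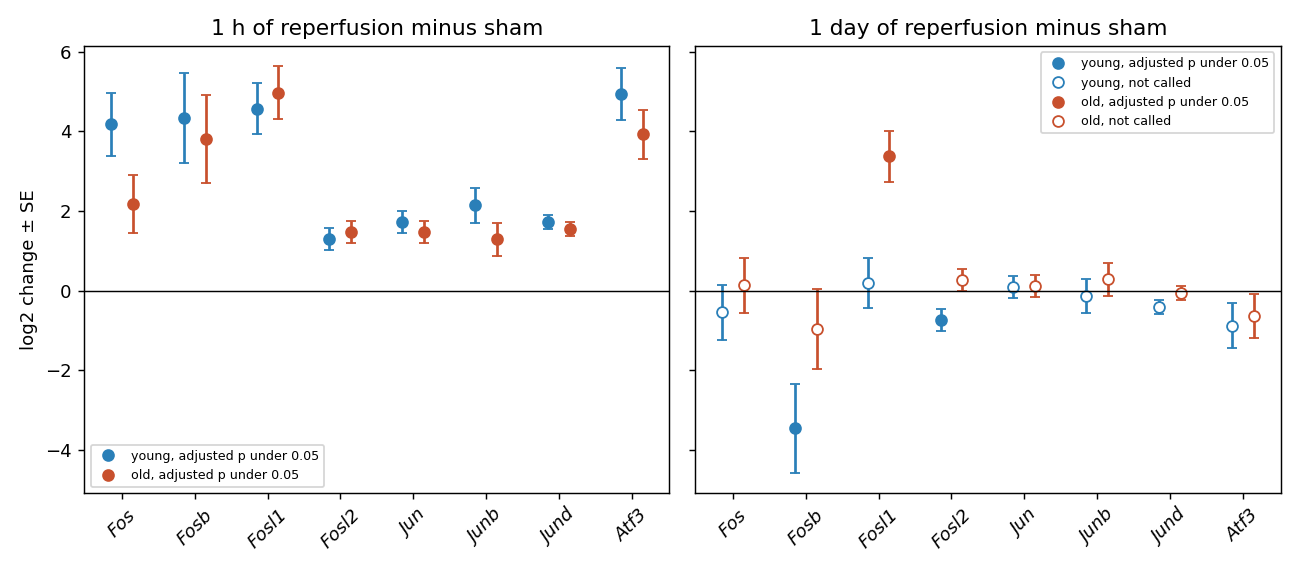
Log2 change from sham of the same age with its SE, for the 8 AP-1 genes at 1 h (left) and 1 day (right) of reperfusion, in young (blue) and old (orange) lungs. Filled points had an adjusted p under 0.05. All 16 points at 1 h are filled and positive, and at 1 day 3 of 16 are filled: Fosb and Fosl2 in young lungs, below 0, and Fosl1 in old lungs, above 0.

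The age difference in the change at 1 h was tested as an interaction. It was called by edgeR for 0 of the 8 genes, none of which had an unadjusted p under 0.05, against 17.5% of all genes called in either direction. Its largest size was that of Fos, whose rise was smaller in old lungs by a log2 difference of -1.996 ± 0.99 (adjusted p = 0.183, edgeR; unadjusted p = 0.0579). The value for Atf3 was -1.01 ± 0.78 (adjusted p = 0.424). Without old sham 2 these values were -0.94 for Fos (adjusted p = 0.547) and -0.33 for Atf3 (adjusted p = 0.826). Old and young lungs compared directly at 1 h had 0 of 8 genes called by edgeR, and 0 at an unadjusted p under 0.05, against 42.0% of all genes. These shares of all genes moved with the GC trend removed, over the 17994 genes of known GC content. The age difference then had 184 genes higher and 975 lower, against 1588 and 1863 before. The direct comparison had 1856 higher and 4512 lower, against 4034 and 4231. Fosl2 was the 1 gene of the 8 whose old libraries all lay above the young, at 438 to 484 CPM against 318 to 385 CPM, as for 19.7% of all genes (0.37 ± 0.27, adjusted p = 0.293). When only these 2 groups were fitted, Fosl2 and Fosb passed (adjusted p = 0.00654 and 0.0168). In sham lungs 0 of 8 were called between the ages by edgeR, with unadjusted p under 0.05 for Fos and Junb, and 2.31% of all genes were called. Fos was higher in old sham by a log2 change of 2.14 ± 0.72 (adjusted p = 0.148), and Junb by 1.26 ± 0.42 (adjusted p = 0.14). Without old sham 2 the differences were 1.08 for Fos (adjusted p = 0.506) and 0.89 for Junb (adjusted p = 0.355). DESeq2 also called 0 of the 8 in sham lungs, in the 1 h comparison and in the age difference at 1 h.

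By 1 day the rise was gone in young lungs. All 8 genes fell between 1 h and 1 day, against 22.1% of all genes called lower, and in all 8 the 1 day libraries lay below the 1 h libraries (16.4% of all genes). Fosb changed most, by -7.79 ± 1.35 on the log2 scale, to 3.92, 12.3, 3.41 and 1.20 CPM in the 4 young 1 day libraries, or by -8.64 without young 1 day 2. The log2 change was -5.82 ± 0.67 for Atf3, -4.72 ± 0.81 for Fos and -4.37 ± 0.64 for Fosl1. Those of the other genes ranged from -2.27 (Junb) to -1.64 (Jun).

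Against their own sham, young 1 day lungs had 2 of the 8 genes called lower and 0 higher, where 26.0% of all genes were called lower and 27.9% higher. Fosb changed by -3.45 ± 1.12 on the log2 scale (adjusted p = 0.0137, edgeR), and its 4 libraries all lay below the lowest sham library. Without young 1 day 2 the change was -4.31. Fosl2 held 96.2, 74.3, 87.1 and 86.6 CPM against 149, 192, 119 and 116 CPM in sham, a log2 change of -0.74 ± 0.28 (adjusted p = 0.0279). These 2 genes and Atf3 were the 3 whose ranges did not overlap with sham, below it (24.1% of all genes). The Atf3 libraries at 1 day, with 20.8, 16.6, 19.4 and 21.2 CPM, gave a log2 change of -0.88 ± 0.56 (adjusted p = 0.195).

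The Fosl2 call in young 1 day lungs was lost without young sham 1, young sham 2, young 1 day 2 or young 1 day 4 (adjusted p from 0.0518 to 0.107). Jund lay at the threshold, with a log2 change of -0.42 ± 0.18 (adjusted p = 0.051). With the GC trend removed it was -0.82 (adjusted p = 0.000876), and it also passed under DESeq2 (adjusted p = 0.0258). Jun (0.09 ± 0.27) and Fosl1 (0.20 ± 0.63) lay near 0, and both turned below 0 with the GC trend removed. Fos (-0.55 ± 0.70) and Junb (-0.13 ± 0.42) did not pass either. In young 1 day lungs 27.9% of all genes were called higher and 26.0% lower. Of 5 monocyte and macrophage markers 4 were called higher there, and 0 of 5 neutrophil markers were called. The part of either in the values was not tested.

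Old lungs at 1 day kept a more mixed picture. From 1 h to 1 day 7 of 8 genes fell, against 20.9% of all genes called lower, but the ranges were separate for 4 of 8 only: Fosb, Fosl2, Jund and Atf3 (17.6% of all genes). The log2 change was -4.56 ± 0.63 for Atf3 and -4.77 ± 1.16 for Fosb, and without old 1 day 2 it was -5.77 and -7.09. The Fos change was -2.04, or -3.54 without that library (adjusted p = 0.000291). Junb did not pass (-1.003 ± 0.42, adjusted p = 0.0571, edgeR). Without old 1 day 2 the Junb change was -1.62 (adjusted p = 0.00252). Calls of Fos or Fosl1 in this comparison were lost without several single libraries: Fos without old 1 h 4, old 1 day 1, old 1 day 3 or old 1 day 4, and Fosl1 without old 1 h 2, old 1 day 1, old 1 day 2 or old 1 day 4. Fitting only these 2 groups also lost both, with adjusted p = 0.0984 and 0.0878.

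Against old sham, Fosl1 was the 1 gene of 8 called at 1 day, where 20.0% of all genes were called higher. It held 3.66, 7.36, 28.5 and 4.83 CPM in the 4 old 1 day libraries against 1.20, 1.49, 1.21 and 0.441 CPM in old sham, so the ranges did not overlap, as for 17.6% of all genes. The log2 change was 3.37 ± 0.64 (adjusted p = 0.000365, edgeR). Old 1 day 3 held the highest value, and without it the change was 2.30 (adjusted p = 0.00172). These levels rest on 131, 232, 894 and 158 estimated reads at 1 day and 39, 54, 40 and 21 in sham.

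The other 7 genes split by library. In old 1 day 2, Fos held 926 CPM, Fosb 231, Jun 905, Junb 1062 and Atf3 134. In the other 3 old 1 day libraries Fos held 50.2, 213 and 69.7 CPM, and Fosb 2.60, 34.5 and 3.94 CPM. Old 1 day 2 thus had AP-1 levels near those at 1 h for Fos, Jun and Junb, and old 1 day 1 had levels near young 1 day. Atf3 held 18.6, 28.1 and 17.5 CPM in the libraries other than old 1 day 2, and Junb 156, 571 and 288 CPM.

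Over all 4 libraries Atf3 changed by -0.63 ± 0.55 against old sham (adjusted p = 0.397, edgeR) and Fosb by -0.97 ± 1.01 (adjusted p = 0.483). Without old 1 day 2 both were called lower, as 16.3% of all genes were with all libraries in, Atf3 at -1.84 (adjusted p = 0.00337) and Fosb at -3.28 (adjusted p = 0.0173). Without both old sham 2 and old 1 day 2, an alternative chosen after seeing the data, Atf3 was called at -1.17 (adjusted p = 0.0118) and Fosl1 at 3.73, and no other of the 8. Fos (0.13 ± 0.69), Fosl2 (0.28 ± 0.27), Jun (0.12 ± 0.27), Junb (0.28 ± 0.42) and Jund (-0.07 ± 0.18) did not pass. Without old sham 2 the Fos change was 1.19, and without old 1 day 2 it was -1.37, while that of Junb was -0.33 without old 1 day 2. Fosb and Atf3 turned to 0.27 and 0.047 without old sham 2.

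The marker sums of these libraries differed as well. The 5 neutrophil markers summed to 565, 4793, 2170 and 1943 CPM in old 1 day 1 to 4, in that order. Of the 5, 4 were called higher than in old sham, as were 20.0% of all genes. The library with the highest sum was the one with the highest Fos, Fosb, Jun, Junb, Jund and Atf3, and the one with the lowest sum had the lowest Fos, Fosb, Fosl1, Fosl2, Jun, Junb and Jund. Other groups did not all share this order. Old sham 2 had the highest neutrophil sum of its group, 1082 CPM against 808 to 883 CPM, and the highest Fos there. Young 1 h 4 and young 1 day 1 (725 CPM) also had the highest sum and the highest Fos of their groups. Old 1 h 1 ran the other way, as given above. Young sham 1, with the highest sum of young sham (739 CPM), had the lowest Fos and Jun there. The monocyte and macrophage markers, 5 of 5 higher, summed to 856, 796, 927 and 690 CPM. All 4 T and B cell markers were lower than in sham, where 16.3% of all genes were called lower. No neutrophil or macrophage marker was at 0 in any library, and their part in the AP-1 values was not tested.

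**Figure D3:**
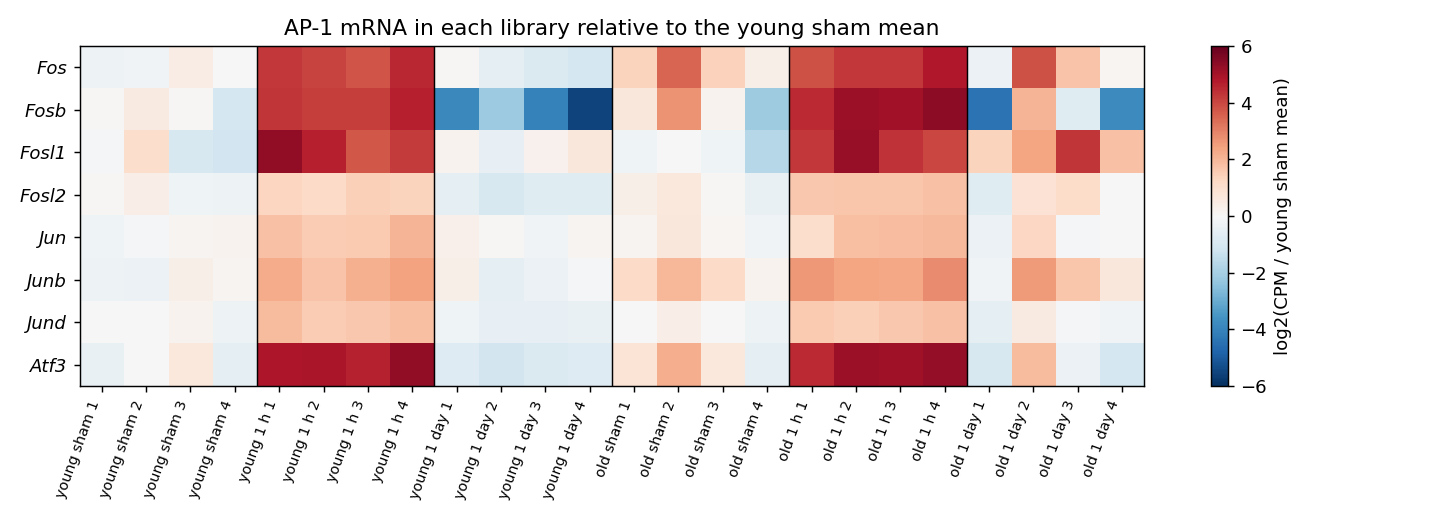
Log2 ratio of each library's CPM to the young sham mean, for the 8 AP-1 genes (rows) in 24 libraries (columns, grouped), red above and blue below that mean. The 8 libraries at 1 h are red throughout. Fosb is bluest in young 1 day 1, 3 and 4 and in old 1 day 1 and 4. It is less blue in young 1 day 2 (-2.19) and old sham 4 (-2.12). Old sham 2 is redder than its neighbours for Fos (3.49) and Fosb (2.68). Old 1 day 2 is redder than its neighbours for Fos (3.83), Fosb (2.03), Jun, Junb and Atf3. It is not so for Fosl1 and Fosl2, which are reddest of that group in old 1 day 3.

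Old and young lungs at 1 day differed in 5 of 8 genes, all higher in old, against 25.1% of all genes called higher. The log2 differences were 2.82 ± 0.74 for Fos, 3.72 ± 1.14 for Fosb, 2.70 ± 0.61 for Fosl1, 1.22 ± 0.28 for Fosl2 and 1.67 ± 0.43 for Junb. Their adjusted p-values from edgeR ran from 0.00102 (Fosl1) to 0.0103 (Fosb). The ranges of the ages did not overlap for Fosl1 alone, as for 18.0% of all genes called above in this way. Without old 1 day 2 the calls of Fos (1.31, adjusted p = 0.0643) and Fosb (1.40, adjusted p = 0.224) were lost, while Fosl1, Fosl2 and Junb passed, Junb at 1.06. Without young 1 day 2 the Fosb difference was 4.58. Without old 1 day 3 the Fosl1 difference was 1.64 (adjusted p = 0.00997). Atf3 (1.34 ± 0.56, adjusted p = 0.0535) and Jund (0.41 ± 0.18, adjusted p = 0.0605) lay just outside the threshold, and both passed with the GC trend removed. Without old 1 day 2 they were 0.13 (adjusted p = 0.824) and 0.15 (adjusted p = 0.432). Jun differed by 0.25 ± 0.27.

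Whether the change from sham to 1 day itself differed between the ages was tested as an interaction. It was called for Fosl1, at 3.17 ± 0.89 (adjusted p = 0.0104, edgeR), where 15.2% of all genes were called higher. Fosl1 went from 1.45 ± 1.09 to 1.68 ± 0.528 CPM in young lungs and from 1.09 ± 0.449 to 11.1 ± 11.7 CPM in old lungs. Without old 1 day 3 the difference was 2.11 (adjusted p = 0.0314), and without young sham 2 it was 2.52. For Fosl2 the difference was 1.02 ± 0.39 (adjusted p = 0.0521), and it passed under DESeq2 (adjusted p = 0.0275). Jund gave 0.35 ± 0.25 (adjusted p = 0.307). Fos, Fosb and Junb, also higher in old than in young lungs at 1 day, were not called here (adjusted p = 0.645, 0.214 and 0.635, edgeR).

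Levels can be compared between genes only per length, in TPM, which scale each count by transcript length and library total. In young sham the 3 Jun genes led, Jun at 280 ± 40.1 TPM, Jund at 260 ± 35.8 and Junb at 223 ± 51.3 (SD, n = 4), with ranges that overlapped from each to the next. Fos followed at 70.8 ± 16.8 TPM, below all 3 Jun genes in every library, then Fosl2, Atf3 and Fosb, whose ranges overlapped from each to the next. Fosl1 came last at 1.96 ± 1.55 TPM. At 1 h in young lungs the order changed: Atf3 (1055 ± 214 TPM) and Fos (1051 ± 220 TPM) came first, and the top 6 genes down to Fosb (583 ± 104 TPM) overlapped from each to the next. Fosl2 at 115 ± 13.3 TPM and Fosl1 at 38.6 ± 17.7 TPM stayed apart below.

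Old 1 h lungs had Fos at 1225 ± 373 TPM, Atf3 at 1182 ± 284, Junb at 1123 ± 188 and Fosb at 998 ± 270, ahead of Jun and Jund, again with overlap from each to the next. At 1 day in young lungs the Jun genes were back on top (Jun 254 ± 30.4 TPM), Fos stood at 41.4 ± 14.9 TPM, and Fosb, at 2.77 ± 2.67 TPM, overlapped with Fosl1 at 1.91 ± 0.569 TPM. In old sham and old 1 day Junb led, at 516 ± 250 and 598 ± 448 TPM, and overlapped with Jun, the next.

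The 8 mRNAs together made up 969 ± 116 TPM in young sham, 5129 ± 833 at 1 h and 688 ± 91.0 at 1 day. In old lungs the sums were 1625 ± 866, 6198 ± 1267 and 1655 ± 1228 TPM. Genes of the Fos family gave 17.1% ± 2.71 of the young sham sum and 34.8% ± 1.42 of the sum at 1 h. Atf3 gave 4.22% ± 1.20 and 20.5% ± 1.84, and the Jun share went from 78.7% ± 3.21 to 44.6% ± 3.12. In old lungs the Jun share was 71.5% ± 10.5 in sham, 42.4% ± 4.00 at 1 h and 75.9% ± 10.3 at 1 day.

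The TPM ratio of Fosb to Fos varied between groups. Young lungs had a ratio of 0.524 ± 0.265 in sham, 0.56 ± 0.0537 at 1 h and 0.0672 ± 0.0645 at 1 day. In old lungs it was 0.227 ± 0.0989 in sham, 0.82 ± 0.0743 at 1 h and 0.0733 ± 0.0536 at 1 day. At 1 h the old libraries, from 0.745 to 0.897, all lay above the young, from 0.52 to 0.639. In each age every 1 day ratio, at most 0.162 in young and 0.141 in old, lay below every 1 h ratio.

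**Figure D4:**
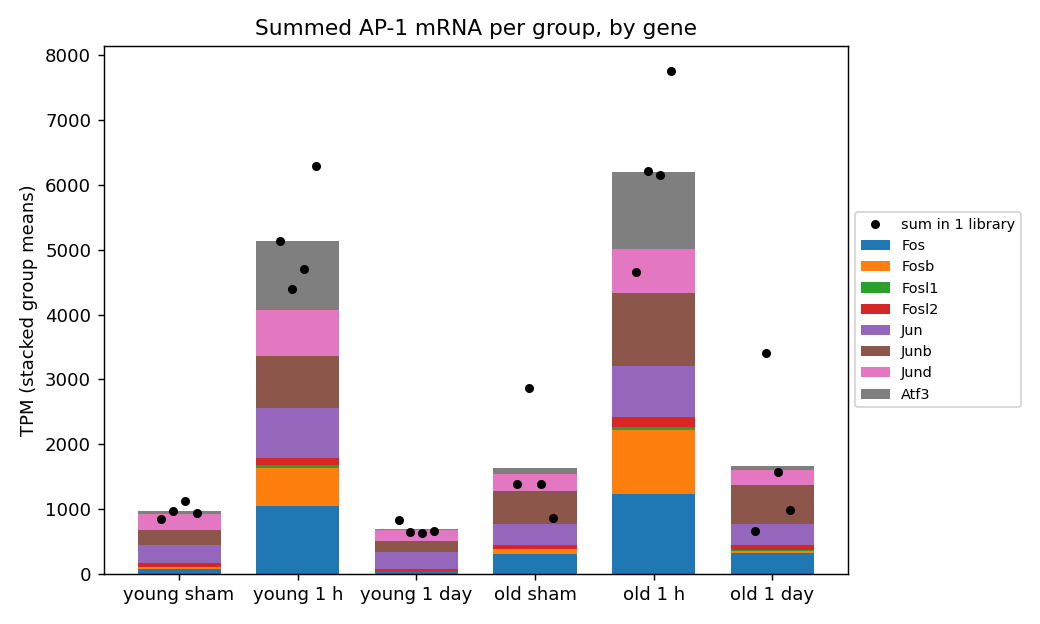
Mean TPM of the 8 AP-1 genes stacked by gene for each group, with the summed TPM of each library as black points (linear axis from 0). The sums at 1 h lie between 4392 and 7759 TPM, all above the 652 to 3406 TPM of old 1 day and the 620 to 1127 TPM of young sham and young 1 day.

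Fosb was the 1 gene of the 8 whose transcripts could be told apart. Full-length FosB mRNA (variant 1, 3776 bases) and the shorter variant 2 (3636 bases), which encodes ΔFosB, differ by a spliced-out segment of 140 bases. Loss of this segment shifts the reading frame, and ΔFosB ends early, without the C-terminal activation domain of FosB; in brain ΔFosB is known as a long-lived protein. The segment lies in an exon of Fosb at chr7:19305007-19305146 on the minus strand (GRCm38), where 2 GENCODE transcripts lack it. It is printed with 15 bases on each side, in capitals, because it is the stretch that separates the forms compared next.
Fosb, segment absent from variant 2: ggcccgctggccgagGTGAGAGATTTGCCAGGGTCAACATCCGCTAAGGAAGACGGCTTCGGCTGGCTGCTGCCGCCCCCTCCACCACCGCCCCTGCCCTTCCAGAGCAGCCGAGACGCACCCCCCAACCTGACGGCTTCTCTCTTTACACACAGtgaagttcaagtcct
The stop codon of the short form lies at chr7:19305004-19305006, directly after the segment, and that of the full form at chr7:19304841-19304843.

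Variant 2 made up 66.5, 63.7, 32.0 and 52.3% of Fosb TPM in young sham and 53.4, 48.1, 44.1 and 58.3% in young 1 h. Both forms thus rose with the gene, and the mean shares of variant 2, 53.6% and 51.0%, lay within the spread of the libraries. In old lungs variant 2 held 40.8, 41.0, 43.0 and 48.9% in sham and 49.2, 42.9, 45.3 and 47.3% at 1 h. At 1 day the shares of variant 2 were lower on average, 15.3% ± 20.2 in young and 24.8% ± 18.2 in old lungs, and most of them rest on few reads. Fosb as a whole had 118, 345, 150 and 40 estimated reads in young 1 day and 93, 7269, 1083 and 129 in old 1 day, where variant 2 held 0, 30.9, 43.4 and 24.7% in the same order. Old 1 day 2, the deepest of these libraries for Fosb, thus lay below every old sham library. Of 12 share tests (3 transcripts in 4 comparisons with sham), 0 passed by the exact two-sided permutation test of 4 against 4 libraries, and 0 had an unadjusted p under 0.05. The smallest adjusted p was 0.343, and the smallest p the design allows is 0.0286. With 12 tests adjusted together, 1 share at that smallest p could not have passed alone. That 0 passed therefore cannot show that the shares were unchanged. Shares were tested only where 2 or more transcripts of a gene had a mean of at least 1 TPM. The 2 listed Jund transcripts have the same position and length. They were not split, since 1 of them held at most 0.106 TPM in any library.

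**Figure D5:**
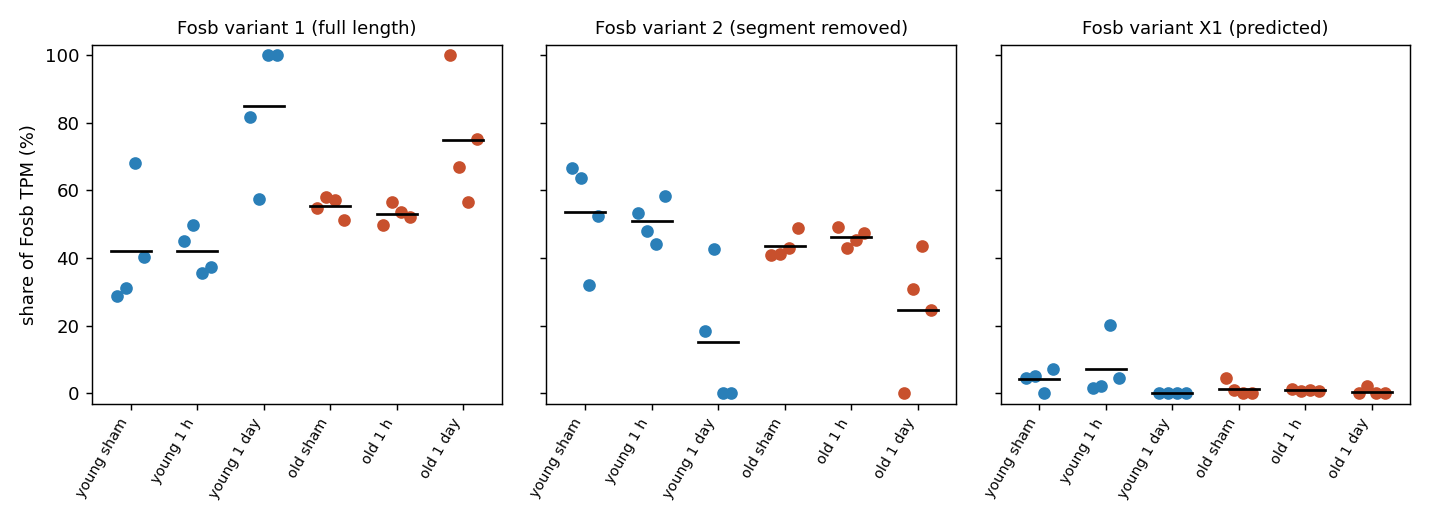
Share of Fosb TPM (percent) in each of its 3 listed transcripts by library (points) with the group mean (bar), young in blue and old in orange. Young sham libraries spread from 32.0 to 66.5% for variant 2, old sham and old 1 h libraries lie between 40.8 and 49.2%, and the 1 day libraries spread from 0 to 43.4% for variant 2.

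Each AP-1 gene was set beside the genes whose log2 CPM followed it most closely over the 24 libraries (Pearson's r, a description, since libraries share their groups). Fos was followed best by Egr1 (r = 0.985), another immediate early transcription factor, then by Ppp1r15a, a phosphatase subunit of the stress response (0.979), and Csrnp1 (0.970). Junb was also nearest to Egr1 (0.969), then to Fos (0.966) and Ier2 (0.965), an immediate early gene. Fosb was nearest to Nr4a1 (0.962), an orphan nuclear receptor. Mob3c (0.945) and the prostaglandin synthase gene Ptgs2 (0.944) came after it. Fosl1 stood with another set, Noct (0.980), Pvr (0.971) and the thioredoxin reductase gene Txnrd1 (0.966).

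Fosl2 was nearest to the NF-kB inhibitor Tnfaip3 (0.981), then Csrnp1 (0.959) and the ribonuclease gene Zc3h12a (0.957). Jund and Atf3 were nearest to each other (0.986), with the mitochondrial carrier Slc25a25 as the next of both (0.981 and 0.974). Jun was nearest to the phosphatase gene Dusp8 (0.955) and Atf3 (0.955), then to Gcc1 (0.947). By Spearman's rho the nearest 3 held the same 3 genes for Fosl1 and Junb, 2 of 3 for Jund, 1 of 3 for Fos, Fosb, Jun and Atf3, and none for Fosl2. For Atf3 the gene kept was Sde2 and not Jund.

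Other genes of the AP-1 pathway were counted in lists. Of all genes tested, 21.2% were called higher and 20.1% lower in young 1 h, and 12.6% higher and 12.6% lower in old 1 h. Of 11 other AP-1 and Maf zipper factors, 7 rose and 2 fell in young 1 h (median log2 change 0.79), and 5 rose and 0 fell in old 1 h (median 0.65), where the medians of all genes were 0.02 and 0.00. The small Maf genes Mafk and Maff, whose products lack an activation domain, rose in both: Mafk from 86.4 to 347 CPM in young (log2 2.00 ± 0.17) and from 89.4 to 260 CPM in old (1.54 ± 0.17), Maff by 2.30 ± 0.29 and 1.82 ± 0.29.

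Upstream, 4 of 15 MAP kinase cascade genes rose and 3 fell in young 1 h (median log2 change 0.09), and 5 rose and 1 fell in old 1 h (median 0.12). In young 1 h both shares lay near those of all genes, 21.2% and 20.1%. Map2k3, a kinase that activates p38, rose by 1.21 ± 0.18 in young and 1.02 ± 0.17 in old, and Map3k8, a kinase induced in inflammation, by 1.37 ± 0.23 in old. Of 13 factors known to act at Fos and Jun promoters, 6 rose and 4 fell in young 1 h (median log2 change 0.22) and 5 rose and 0 fell in old 1 h (median 0.28), beside the 21.2% higher and 20.1% lower of all genes in young 1 h and 12.6% each way in old 1 h. Srf, the serum response factor that binds the Fos promoter, rose from 74.3 to 311 CPM in young (2.06 ± 0.10) and from 76.7 to 243 CPM in old (1.67 ± 0.09). Stat3 rose by 1.39 ± 0.13 and 1.18 ± 0.13. Creb1, which binds the TGACG core, was called lower in young 1 h (-0.67 ± 0.09), but the call was lost with the GC trend removed (-0.08).

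Of 6 regulators of AP-1 proteins, 1 rose and 2 fell in young 1 h (median log2 change -0.08) and none was called in old 1 h (median -0.03), beside the 21.2% higher and 20.1% lower of all genes in young 1 h. The falls in young 1 h were of the ubiquitin ligase genes Itch and Cop1. With the GC trend removed the fall of Itch was lost and Cop1 turned to a rise of 0.56. At 1 day 2 of 6 rose and 3 fell in young lungs, and 2 rose and 0 fell in old lungs, where 27.9% and 26.0% of all genes in young and 20.0% and 16.3% in old were called higher and lower.

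Known AP-1 target genes were the largest list, 17 of 18 of them tested. In young 1 h 11 rose and 0 fell, with a list median of 1.28 on the log2 scale, and in old 1 h 10 rose and 1 fell (median 1.15), against 21.2% and 12.6% of all genes called higher. The growth factor genes Areg and Hbegf and the urokinase receptor gene Plaur had the smallest p-values of the list at 1 h in both ages. Areg went from 5.49 to 63.4 CPM in young (3.52 ± 0.35) and from 4.87 to 47.5 CPM in old (3.29 ± 0.35). Hbegf rose by 1.79 ± 0.17 and 1.74 ± 0.17.

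At 1 day, when most of the 8 AP-1 mRNAs were no longer above sham, 8 target genes were higher and 2 lower in young lungs (median log2 change 0.60), and 13 were higher and 1 lower in old lungs (median 0.95). The medians of all genes were -0.03 and 0.02, and 27.9% of them were called higher in young and 20.0% in old lungs. The protease inhibitor gene Timp1 went from 12.9 to 204 CPM in young (3.98 ± 0.37) and from 6.01 to 205 CPM in old (5.10 ± 0.40). Spp1, which encodes osteopontin and is also a macrophage product, rose by 2.98 ± 0.31 and 1.98 ± 0.30, and the protease gene Mmp3 by 1.59 ± 0.25 and 2.17 ± 0.26. The 1 h and 1 day comparisons share their sham libraries.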

How the data were processed

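Lung RNA was sequenced after a stranded mRNA kit, per the labels' protocols. HISAT2 and StringTie are named in the submitters' processing notes, on mm10 (GRCm38), with versions and strand setting not given in the sources used here. The deposited table lists 129299 transcripts. The deposited read counts are estimated counts per transcript. In each library 99.14% to 99.7% of low values equalled the FPKM times length times a constant of that library, rounded up. FPKM were deposited by the authors and served only for that check. TPM were scaled by the authors, and were deposited per transcript.

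Counts and TPM were summed to genes. Genes were kept by filterByExpr (minimum count 10), scaled by TMM (0.88 to 1.092) and fitted with 6 group means over 24 libraries (edgeR 4.0.16, glmQLFit robust, R 4.3.3). The biological coefficient of variation was 23.2%. Benjamini-Hochberg adjustment ran over 19690 genes per comparison, two-sided, with 0.05 as threshold; the script was tested on simulated data. CPM use TMM-adjusted totals. Transcript shares of TPM were tested with exact permutation. GC content was known for 91.4% of genes tested.

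Alternatives were DESeq2 1.42.0, other filters, only the groups compared, a replicate block, limma 3.58.1 on log2(TPM + 1), no TMM, removal of the GC trend and leaving out each library. The 8 genes and all lists were chosen with earlier results of these data known. The text names the 8 genes, for each list and comparison with sham genes among the 3 called with the smallest p, and the 3 genes most like each of the 8. A result for 1 listed gene is not reported here. Mkl1 and Mkl2 were looked up as Mrtfa and Mrtfb. No consistent pairing by replicate number was seen. In no comparison did more than 2 of 4 same-numbered pairs have deviations correlated above 0.1. With 4 pairs per comparison, this check cannot show that pairing is absent.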

Additional observations from a re-analysis of the deposited data

Results flagged for a closer look

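In 5 of 48 combinations of gene and group, 1 library lay far from the other 3 by Dixon's test for 4 samples, where chance flags about 5% of groups. Old sham 2 held 732 CPM of Fos, against 83.6 to 166 CPM in the other old sham libraries. Old 1 day 2 held 231 CPM of Fosb against 2.60 to 34.5 CPM, 905 CPM of Jun against 307 to 398 CPM, and 134 CPM of Atf3 against 17.5 to 28.1 CPM. Old 1 day 3 held 28.5 CPM of Fosl1 against 3.66 to 7.36 CPM. The change of Fosl1 from sham to 1 day differed between old and young lungs by the test of the interaction, with a log2 difference of 3.17.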

How the results depend on the processing

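Leaving out 1 library at a time, the number of the 8 genes called ranged from 5 to 8 in old 1 h against sham, 1 to 3 in young 1 day and in old 1 day against sham, 5 to 7 in old 1 day against 1 h, 3 to 7 in old against young at 1 day and 1 to 2 in the age difference at 1 day. Log2 changes that turned sign ranged as follows. In young 1 day against sham, Fosl1 ran from -0.036 to 0.85 and Junb from -0.34 to 0.012. In old 1 day against sham, Fos ran from -1.37 to 1.19, Fosb from -3.28 to 0.27, Fosl2 from -0.0096 to 0.53, Jun from -0.35 to 0.30, Junb from -0.33 to 0.65, Jund from -0.32 to 0.082 and Atf3 from -1.84 to 0.047. In old against young at 1 day, Jun ran from -0.22 to 0.42.

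Fitting only the groups compared gave 4 genes in young 1 day against sham and 2 in old against young at 1 h, and leaving out old sham 2 and old 1 day 2 gave 2 in old 1 day against sham. The age difference at 1 day held 2 genes under DESeq2, the 1 CPM filter and no TMM, and 3 with the GC trend removed. In young 1 day against sham Jun turned to -0.14 (limma), -0.032 (no TMM), -0.22 (GC trend removed) and -0.21 (GC trend removed with the block), and Fosl1 to -0.18 and -0.017 in the last 2. In old 1 day against sham Fos and Jun turned to -0.37 and -0.049 with limma, and to -0.31 and -0.17 without old sham 2 and old 1 day 2, where Jun in old against young at 1 day was -0.22. With the GC trend removed, without and with the block, Cop1 turned to 0.56 and 0.56 in young 1 h and 0.53 and 0.53 in young 1 day, and Atf2 to 0.11 and 0.11 and Creb1 to 0.024 and 0.024 in young 1 day. The cause was not tested.

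With a replicate block alone, the numbers of the 8 genes called were 8, 8, 2 and 1 in young 1 h, old 1 h, young 1 day and old 1 day against sham, as without it, and it changed no other count. Between same-numbered libraries the deviations correlated at -0.30 to 0.00 in young 1 h against sham. The highest values of any comparison were 0.27 in young 1 day against 1 h and 0.21 in old 1 day against sham.

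Counts over all genes moved by over 1.5 times in places. In young 1 h against sham 4180 genes were higher and 3958 lower (51.4% higher), against 2052 and 6916 with limma (22.9%) and 2306 and 6339 without TMM (26.7%), where the median of all genes shifted to -0.21. In old 1 h 2487 genes were lower, against 5097 and 4612. Old against young sham had 214 genes higher and 240 lower, against 406 and 465 under DESeq2 and 661 and 608 with only those groups. The age difference at 1 h had 1588 higher and 1863 lower, against 184 and 975 with the GC trend removed. The age difference at 1 day had 2990 and 2984, against 1680 and 1845. Low counts limit Fosl1 in sham and Fosb at 1 day most.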
